A study of Mus musculus with 96 samples.

Results

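The genes described are 8 chemokine receptors, Cxcr2, Cxcr4, Cxcr3, Ccr1, Ccr2, Ccr7, Ccr9 and Cx3cr1, out of 23955 gene symbols in a table of single-cell transcript levels. They were taken by name, and their levels in these same cells, in particular the low and even level of Cxcr2 in nearly every cell, were the values that led to the choice, so the levels below are descriptions and carry no test. The table held 96 cells, each from the spleen of a moribund mouse with acute myeloid leukaemia, and 48 cells came from each of 2 mice. Both mice were Flt3ITD/ITD;Dnmt3afl/- with MxCre: an internal tandem duplication on both copies of the receptor kinase gene Flt3, 1 floxed and 1 null copy of the DNA methyltransferase gene Dnmt3a, and a Cre recombinase under the interferon-inducible Mx promoter. Splenocytes were bound to magnetic beads against CD117, the c-Kit receptor of haematopoietic progenitors, captured on a microfluidic chip and made into 1 library per cell.

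Each side of the comparison between mice had 1 animal, and cells of an animal are not replicates, so no p-value was computed. Mouse, capture round and the sex of the animal cannot be told apart, since Xist, the RNA of the inactive X chromosome, reached 10 TPM in 36 mouse 1 cells and 0 mouse 2 cells. TPM, transcripts per 1000000, scales each cell to the same total and keeps no read depth, so depth is unknown. In its stead the genes detected at 1 TPM are given: a median of 3606 (1759 to 5559) per cell in mouse 1 and 3083 (1604 to 6018) in mouse 2. Kit, the gene of the receptor used for selection, reached 10 TPM in 33 mouse 1 cells and 22 mouse 2 cells. Since the mice shared a genotype, nothing here measures what loss of Dnmt3a or duplication in Flt3 does, and control cells were not analysed here.

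Chemokine receptors are G-protein-coupled receptors that let a white blood cell move along a gradient of chemokines, small secreted proteins. Cxcr4 and its ligand Cxcl12 hold haematopoietic progenitors in the bone marrow, and Cxcr2 and its ligands release mature neutrophils from it. Ccr2 brings monocytes out of the marrow and into inflamed tissue, and other receptors of the family steer T cells, dendritic cells and natural killer cells.

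All 8 genes encode a receptor with the DRY motif at the cytoplasmic end of the third membrane helix, where the receptor meets its G protein. The stretch of coding sequence at that motif is shown because it is the signature by which the members belong to a family, and because it shows how far the members can be told apart by sequence. Capitals mark the 3 codons of the motif, and the 4 codons that follow are in lower case.
Cxcr2: GACCGCTACctggccattgta
Cxcr4: GACCGGTACctcgctattgtc
Cxcr3: GACAGATATctgagcatagtg
Ccr1: GACAGATACctggccattgtc
Ccr2: GATAGGTACttggctattgtt
Ccr7: GACCGCTACgtagccatcgtc
Ccr9: GACAGATACattgccattgta
Cx3cr1: GACCGGTACcttgccatcgtc

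These 21 bases lie in coding sequence of the GENCODE transcripts on GRCm38. Cxcr2 has them at chr1:74158772-74158792 on the plus strand and Cxcr4 at chr1:128589500-128589520 on the minus strand. Cxcr3 has them at chrX:101732596-101732616 on the minus strand, and Ccr7 at chr11:99145618-99145638 on the minus strand. Ccr1, Ccr2, Ccr9 and Cx3cr1 all lie on chromosome 9, at chr9:123964084-123964104 (minus), chr9:124106132-124106152 (plus), chr9:123779681-123779701 (plus) and chr9:120051936-120051956 (minus). Of the 21 bases, the most alike pairs of members, among them Cxcr2 and Ccr1, shared 18. Over the whole coding sequence the most alike pair of members was Ccr1 and Ccr2, identical at 63.7% of 1051 aligned bases.

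Cells were grouped by 3 genes that mark myeloid states. A cell with H2-Aa, a class II antigen-presentation gene, at 1000 TPM or more was an H2-Aa cell, of which there were 14 in mouse 1 and 20 in mouse 2. A cell with S100a8, a neutrophil gene, at that level was an S100a8 cell, of which there were 1 and 10. A cell with Mpo, the myeloperoxidase gene of granulocyte and monocyte progenitors, at that level was an Mpo cell, of which there were 13 and 12. The rest, 20 and 6 cells, passed none of these thresholds. A total of 4 cells passed 2 of the thresholds and were placed in the order given. The nearest values on either side of the thresholds were 6732 and 115 TPM for H2-Aa, 1251 and 133 TPM for S100a8, and, for Mpo, 1033 TPM in an Mpo cell and 999 TPM in a rest cell. All 10 markers of class II-high dendritic cells had a mean of 10 TPM or more in the H2-Aa cells of each mouse, all 11 measured neutrophil markers did in the S100a8 cells of mouse 2, and all 10 progenitor markers did in the Mpo cells of each mouse. The single S100a8 cell of mouse 1 had 34099 TPM of Mpo and none of S100a9, Retnlg, Mmp8, Mmp9 or Cd177, so its markers went against a neutrophil name.

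Markers of other cell types that carry these receptors were set beside the states. Of 12 T and NK cell markers, Cd3e, Cd3g, Cd2 and Ncr1 were at 0 in all states, and the summed level was at most 28.5 TPM in any H2-Aa cell. It had medians of 2159 and 1442 TPM in Mpo cells, 1804 and 1379 TPM in rest cells and 458 TPM in S100a8 cells of mouse 2, and was 7476 TPM in the S100a8 cell of mouse 1. Of 8 B cell markers, Ms4a1, Pax5, Ebf1 and Blk were at 0 throughout, while the sum had medians of 85.7 and 58.5 TPM in Mpo cells, with highest values of 888 and 906 TPM. In rest cells it had a median of 0 and reached 1084 and 488 TPM, and it was at most 3.84 TPM in any H2-Aa cell and 77.6 TPM in any S100a8 cell. Of 8 plasmacytoid dendritic markers, Ly6d, Klk1 and Cox6a2 were at 0, and the sum had medians of 15.8 and 4.64 TPM in H2-Aa cells, 14.6 and 18.9 TPM in Mpo cells and 29.4 and 81.5 TPM in rest cells, and of 2.08 TPM in S100a8 cells of mouse 2. The sum of 12 monocyte and macrophage markers was highest in S100a8 cells, with a median of 19207 TPM in mouse 2 and 8932 TPM in the single cell of mouse 1. It had medians of 1872 and 970.4 TPM in H2-Aa cells, 957 and 2056 TPM in Mpo cells and 131 and 23.4 TPM in rest cells. Of 8 mast cell and basophil markers, Fcer1a and Prss34 were at 0, and the sum had medians of 455 and 199 TPM in Mpo cells, 333 and 89.2 TPM in rest cells and 242 TPM in S100a8 cells of mouse 2, and was at most 5.41 TPM in any H2-Aa cell. The part of such cells in the results was not tested.

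The 8 receptors fell into 3 patterns over the 96 cells. Cxcr2 was low and present in nearly every cell. Cxcr4, Ccr2 and Cxcr3 were each higher in some states than in others. Ccr1, Ccr7, Ccr9 and Cx3cr1 were at 10 TPM or more in 7, 1, 1 and 0 cells. By mean level the order was Ccr2 at 202 TPM, Cxcr3 at 60.3, Cxcr2 at 36.6, Ccr1 at 13.8, Cxcr4 at 13.1, Ccr7 at 0.552, Ccr9 at 0.224 and Cx3cr1 at 0.119. In every neighbouring pair of this order the means lay closer than the SD over cells of the higher gene. By median level Cxcr2 came first at 26.97 TPM, followed by Cxcr4 at 2.855 and Ccr2 at 0.35, and the other 5 had a median of 0. The mean and the median thus ranked Cxcr2 and Ccr2 in opposite order.

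**Figure D1:**
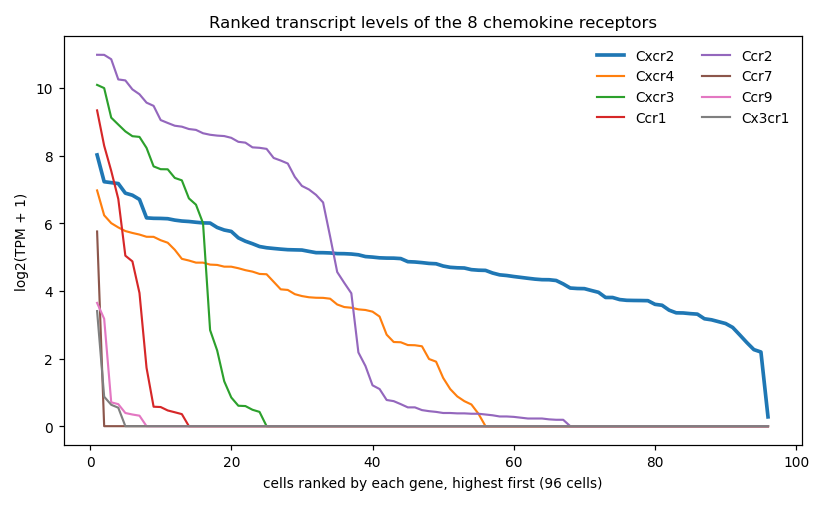
Level of each of the 8 receptors as log2(TPM + 1) (vertical axis) over the 96 cells ranked separately for each gene (horizontal axis), 1 line per gene. The line of Cxcr2 falls slowly from 258 TPM and stays above 0 in all 96 cells, while the line of Ccr2 starts at 2016 TPM and those of the other 7 genes, Ccr2 included, reach 0.

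Cxcr2 encodes the receptor for the neutrophil-attracting chemokines Cxcl1, Cxcl2 and Cxcl5. It was above 0 in 96 of 96 cells, at 1 TPM or more in 95 and at 10 TPM or more in 81, which was 84.4% of cells (exact Clopper-Pearson 95% interval 75.54 to 90.98, for the counting of cells only). In mouse 1 the lowest value was 0.21 TPM, the median 24.1 and the highest 149. In mouse 2 the lowest was 6.56 TPM, the median 30.4 and the highest 258. The ranges of the mice overlapped over most of their length, and the cell at 0.21 TPM, an H2-Aa cell of mouse 1, lay apart from the next lowest at 3.57.

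Cxcr2 was present in every state, with medians of 15.5 to 39.4 TPM. H2-Aa cells ran from 0.21 to 33.96 TPM with a median of 15.5 in mouse 1, and from 6.56 to 146 with a median of 20.5 in mouse 2. Mpo cells ran from 5.49 to 103 with a median of 31.3 in mouse 1, and from 20.5 to 69.7 with a median of 39.4 in mouse 2. The rest cells ran from 3.57 to 149 with a median of 24.6 in mouse 1, and from 12.1 to 37.1 with a median of 28.6 in mouse 2. Every state overlapped the rest cells of its mouse.

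S100a8 cells of mouse 2, whose neutrophil markers summed to a median of 434062 TPM, held Cxcr2 at 8.03 to 258 TPM with a median of 33.2. Since TPM scales each cell to the same total, so large a share lowers the values of all other genes in these cells. Cxcr2 is known as a receptor of mature neutrophils, and the cell with the highest value, cell 84 of mouse 2, was an S100a8 cell that also held Mmp8, a gene of late neutrophil granules, at 3343 TPM. Of other S100a8 cells of mouse 2, cell 73, with Cxcr2 at 143 TPM, held Mmp8 at 2949 TPM. Cell 72, with Cxcr2 at 117 TPM, held Mmp8 at 0. A total of 7 cells reached 100 TPM of Cxcr2: 3 S100a8 cells and 2 H2-Aa cells of mouse 2, and 1 Mpo cell and 1 rest cell of mouse 1. Among these 7, the H2-Aa, Mpo and rest cells held Mmp8 at 0. One of the H2-Aa cells, cell 68 of mouse 2, was also past the Mpo threshold. The high values were thus not limited to S100a8 cells, and 2 of the 10 S100a8 cells of mouse 2 lay below 10 TPM.

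The mean of log2(TPM + 1), the scale on which all differences are given, was higher by 0.45 in mouse 2 than in mouse 1 for Cxcr2. Without the H2-Aa, S100a8 and Mpo cells that difference was 0.01. With each cell rescaled without its 10 most abundant genes it was 0.68. Against the rest cells of the same mouse, H2-Aa cells differed by -0.83 in mouse 1 and 0.04 in mouse 2, Mpo cells by 0.55 and 0.82, and S100a8 cells of mouse 2 by 0.62. None of these differences from the rest cells reached 1, a 2-fold difference on this scale, although that of H2-Aa cells of mouse 1 was -1.22 with a state threshold of 300 TPM. The difference of S100a8 cells was not rescaled for the large share of neutrophil genes in them, which lowers their values of Cxcr2. Set against the Mpo cells of their mouse, H2-Aa cells were lower, with a difference of -1.38 in mouse 1 (means of 16.55 and 44.61 TPM) and -0.78 in mouse 2. Of all genes, 48.6% were lower and 7.32% higher by 1 or more in H2-Aa than in Mpo cells of mouse 1, and 50.1% and 6.35% in mouse 2. The difference of mouse 1 was -0.93 with a pseudocount of 10, -0.96 with a threshold of 300 TPM and -0.71 with the number of detected genes removed.

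**Figure D2:**
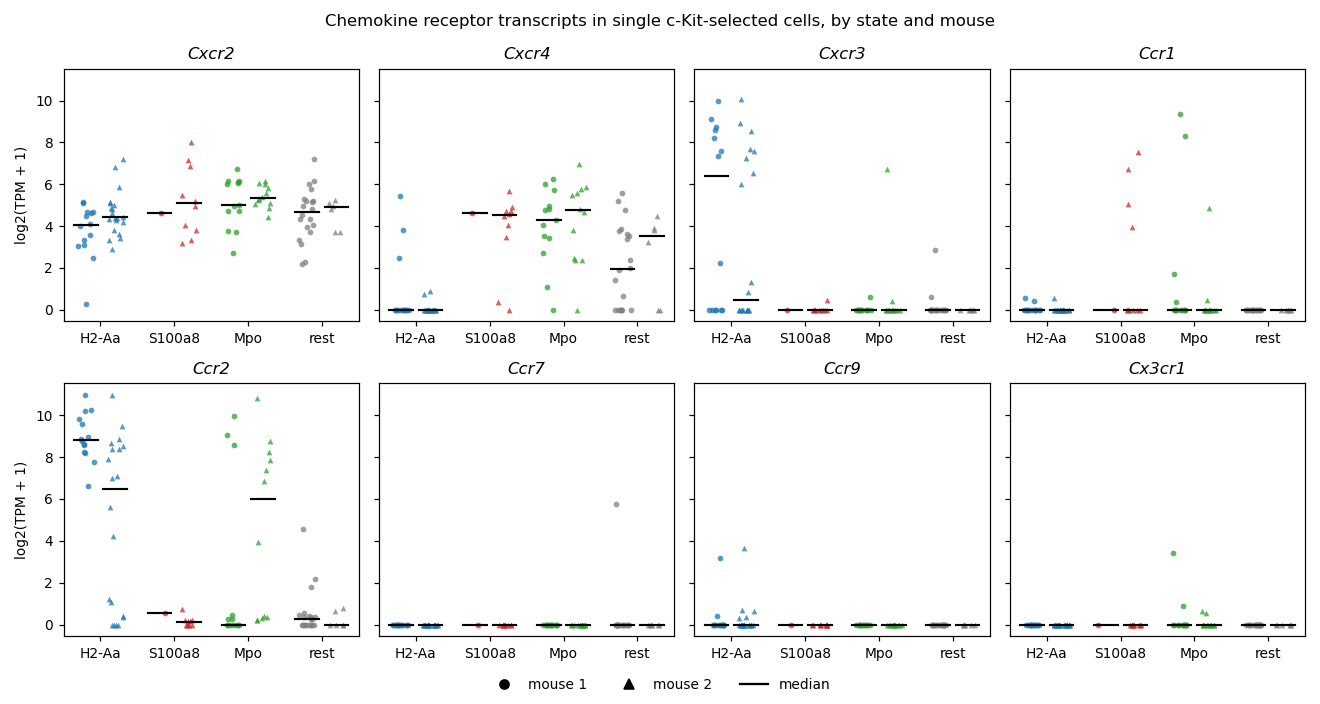
Level of each receptor as log2(TPM + 1) (vertical axis) in each cell, by state (horizontal axis) and mouse (circles mouse 1, triangles mouse 2), with black bars at the medians. Cxcr2 has medians of 15.5 to 39.4 TPM over the states, Ccr2 is high in the H2-Aa cells (medians 447 and 87.1 TPM), and Cxcr4 has a median of 0 in the H2-Aa cells of both mice.

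Few genes of the level of Cxcr2 were as even, a property that led to its choice. The SD of its log2(TPM + 1) over 96 cells was 1.24, and the cell at the 90th percentile held 8.18 times the TPM of the cell at the 10th. Of 199 other genes with a mean within 0.25 of its own, 1 had a lower SD, and their median SD was 3.54. Within mouse 1 the count was 2 of 286 genes, and within mouse 2 it was 2 of 155. A total of 197 genes were above 0 in all 96 cells, 40 of them with a mean no higher than that of Cxcr2, and 6 of the 199 genes of like mean were.

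Ccr2 and Cxcr3 were among the least even genes of their level, and Cxcr4 among the more even. Ccr2 had an SD of 4.07, and 438 of 449 genes of like mean had a lower one. Cxcr3 had an SD of 3.04, and 1361 of 1374 genes of like mean had a lower one. Cxcr4 had an SD of 2.27, and 41 of 830 genes of like mean had a lower one.

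Several values stood beside the even level of Cxcr2, and their part in it was not tested. Of the 50-base words of transcript Cxcr2-202, 203 of 2997 occurred in transcripts of 220 other genes on either strand, all of them within its 3' untranslated region, while transcript Cxcr2-201 shared none. Of 194 genes of like mean found in the annotation, 33, or 17.01%, shared words with at least as many other genes, and the median was 2. The most even named genes of like mean were Neu3, Luc7l2, Rplp2-ps1, Tmem69 and Tapbpl, with SDs of 1.39 to 1.68, and Neu3, Luc7l2, Tmem69 and Tapbpl shared words with 126, 165, 200 and 256 other genes. Xcr1, the receptor of cross-presenting dendritic cells and no member, shared words with 429 other genes, and its median was 0.33 TPM in Mpo cells and 603 TPM in H2-Aa cells.

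**Figure D3:**
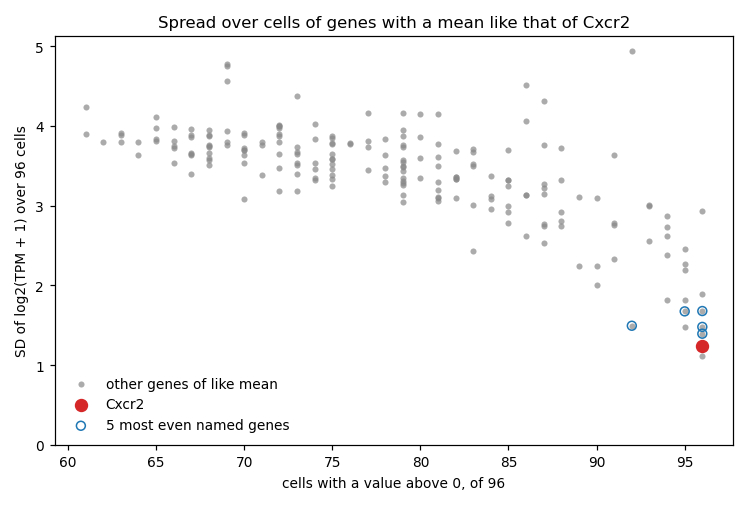
SD of log2(TPM + 1) over 96 cells (vertical axis) against the number of cells with a value above 0 (horizontal axis), for Cxcr2 (red), 199 other genes with a mean within 0.25 of its own (grey) and the 5 most even named genes among them (blue rings). Cxcr2 sits at an SD of 1.24 and 96 cells, with 1 grey point below it.

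Low values were also set beside the cell numbers. At the positions (cell number by 8) that held a cell at 100 TPM or more of Cxcr2, the other cells had a median of 25.6 TPM (41 cells). At the positions that held none, the median was 24.6 TPM (48 cells). These positions pool both mice, which were captured in separate rounds, and the cell number by 8 does not follow the wells in the labels. Nothing is therefore read from these medians. H2-Aa, which reached 39479 TPM, gave the size of low values of a gene that is very high elsewhere: it was at 1 TPM or more in all 96 cells, with a median of 6.99 TPM in the rest cells. Cxcr2 had a median of 26.97 TPM in those cells, with a highest value of 258 TPM anywhere. Low values of another gene do not measure the background of Cxcr2, and the source of its low values was not tested. Over the 48 cells of a mouse the Spearman correlation of Cxcr2 with the number of detected genes was 0.29 in mouse 1 and 0.18 in mouse 2. The genes most like Cxcr2 across cells, by the mean of the 2 within-mouse Spearman correlations over 48 cells each and 8008 genes, were Pola2, Cflar, Nup43, Slc7a14 and Pbld1, at 0.41 to 0.46.

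Cxcr4, the receptor for Cxcl12 that retains progenitors in the marrow, was found in the largest shares of Mpo and S100a8 cells, and also in rest cells. It reached 10 TPM in 19 mouse 1 cells and 18 mouse 2 cells, with a highest value of 124 TPM. Mpo cells reached that level in 9 of 13 and 8 of 12 cells, with medians of 18.27 and 25.98 TPM and ranges of 0 to 74.2 and 0 to 124. S100a8 cells of mouse 2 reached it in 7 of 10, with a median of 22.1 TPM and a range of 0 to 49.7. The 2 states overlapped over most of their ranges.

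H2-Aa cells held little Cxcr4. In mouse 1, 2 of 14 were at 10 TPM or more, with a highest value of 41.9. In mouse 2, 0 of 20 were, a count that allows up to 15% of such cells, with a highest value of 0.84 TPM. The rest cells lay between, with 7 of 20 and 3 of 6 cells at 10 TPM or more, medians of 2.855 and 10.7 TPM, and values at 0 in both mice. No state was free of overlap with the rest cells.

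Cxcr4 differed by -1.27 in H2-Aa cells of mouse 1 and -2.49 in those of mouse 2 against the rest cells, by 1.86 and 1.61 in Mpo cells, and by 1.12 in S100a8 cells of mouse 2. With a pseudocount of 10 in place of 1 all of them fell short of 1, at -0.39 and -0.82 in H2-Aa cells, 0.86 and 0.88 in Mpo cells and 0.56 in S100a8 cells. The S100a8 difference was 0.88 without the cells past several thresholds, and that of H2-Aa cells of mouse 1 was -0.59 with a threshold of 300 TPM. The number of detected genes moved with it: its Spearman correlation with Cxcr4 was 0.57 in mouse 1 and 0.56 in mouse 2, and the median was 2921.5 and 2581 genes in H2-Aa cells against 4463 and 4041 in Mpo cells. With that number removed by a linear fit within each mouse, the differences were -0.10 and -0.73 in H2-Aa cells and 0.87 and 1.11 in Mpo cells. The genes most like Cxcr4 were Gsr, Ap3s1, Cd93, Prtn3 and Ly6a, with mean correlations of 0.61 to 0.64.

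Ccr2, the receptor for the monocyte chemoattractant Ccl2, was the highest of the 8 by mean and was found mainly in H2-Aa and Mpo cells. In mouse 1 all 14 H2-Aa cells held it, with a lowest value of 96.9 TPM, a median of 447 and a highest of 2016. The 20 rest cells of mouse 1 ran from 0 to 22.5 TPM with a median of 0.215. In mouse 2, 12 of 20 H2-Aa cells were at 10 TPM or more, with a lowest value of 0, a median of 87.1 and a highest of 2013. The 6 rest cells of mouse 2 ran from 0 to 0.71 TPM and overlapped the 8 H2-Aa cells below 10 TPM. H2-Aa cells were thus uniformly positive for Ccr2 in one mouse and divided in the other.

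Mpo cells were divided in both mice, with 3 of 13 and 7 of 12 cells at 10 TPM or more and highest values of 991 and 1840 TPM. Of those 10 Mpo cells, 8 also held Ly6c2, a marker of inflammatory monocytes and their progenitors, at 10 TPM or more, against 4 of the 15 Mpo cells below that level of Ccr2. These counts pool the mice. In mouse 1, 3 Mpo cells held both genes, 0 Ccr2 alone, 2 Ly6c2 alone and 8 neither. In mouse 2, 5 held both, 2 Ccr2 alone, 2 Ly6c2 alone and 3 neither, a weaker contrast. S100a8 cells held no Ccr2 at that level, 0 of 10 in mouse 2, a count that allows up to 30% of such cells, although all 11 S100a8 cells of both mice held Ly6c2. The differences from the rest cells were 8.38 and 4.67 in H2-Aa cells, 1.62 and 4.38 in Mpo cells and -0.08 in S100a8 cells of mouse 2.

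Ccr2 was between 0 and 1 TPM in 26 cells, 10 of them rest cells, 8 Mpo cells, 6 S100a8 cells and 2 H2-Aa cells. The genes most like Ccr2 were Ly86, Ctss, Irf8, Tpm4 and Pld4, with mean correlations of 0.61 to 0.66.

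Cxcr3, the receptor for the interferon-induced chemokines Cxcl9 and Cxcl10, was found mainly in H2-Aa cells. It reached 10 TPM in 16 cells, of which 15 were H2-Aa cells and 1 was an Mpo cell of mouse 2 at 105 TPM. H2-Aa cells of mouse 1 ran from 0 to 1018 TPM with a median of 82.3, and 7 of 14 were at 10 TPM or more. H2-Aa cells of mouse 2 ran from 0 to 1087 TPM with a median of 0.4, and 8 of 20 were. The rest cells ran from 0 to 6.16 TPM in mouse 1 and were all at 0 in mouse 2. In each mouse the H2-Aa cells fell into cells with much Cxcr3 and cells at or near 0, and the latter overlapped the rest cells.

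The differences of Cxcr3 from the rest cells were 4.24 in mouse 1 and 3.24 in mouse 2 for H2-Aa cells, and -0.13 and 0.60 for Mpo cells. The number of detected genes was lower in H2-Aa cells, and with it removed the H2-Aa differences were 3.28 and 2.60. Among the genes most like Cxcr3 were Lrrk2, Aif1 and Ptms, with mean correlations of 0.54, 0.53 and 0.52. Cxcr3 passed the filter on low values mainly through the H2-Aa cells, in which 17 of its 19 cells at 1 TPM or more lay.

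Most cells with Cxcr3 also held Ccr2. Of the 16 cells at 10 TPM or more of Cxcr3, 15 also held Ccr2 at that level, whereas 15 of the 37 cells with Ccr2 held Cxcr3. In mouse 1, 7 of the 14 H2-Aa cells held both and 7 held Ccr2 without Cxcr3. In mouse 2, 7 of the 20 H2-Aa cells held both, 5 held Ccr2 without Cxcr3, 1 held Cxcr3 without Ccr2 and 7 held neither. The Spearman correlation of the 2 genes was 0.46 over the 48 cells of mouse 1 and 0.57 over those of mouse 2. These correlations run across states. The cells highest in one gene were not always high in the other: cell 77 of mouse 2, highest in Cxcr3 at 1087 TPM, held Ccr2 at 136 TPM, and cell 51 of mouse 2, with 2013 TPM of Ccr2, held Cxcr3 at 0.8 TPM.

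**Figure D4:**
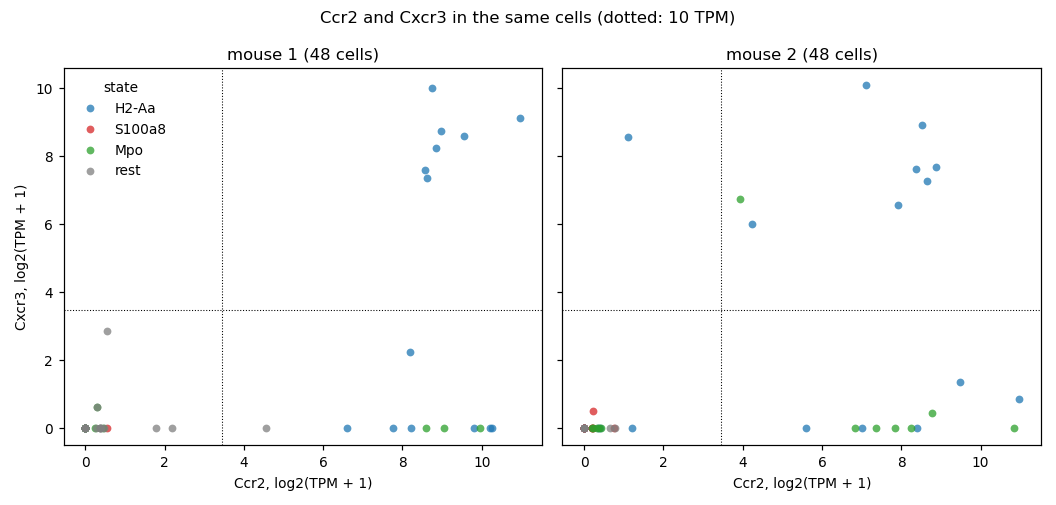
Cxcr3 (vertical axis) against Ccr2 (horizontal axis), both as log2(TPM + 1), 1 point per cell and 1 panel per mouse, coloured by state, with dotted lines at 10 TPM. All but 1 of the 16 cells above the line of Cxcr3 lie to the right of the line of Ccr2, and 22 cells hold Ccr2 without Cxcr3.

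Ccr1, a receptor for Ccl3, Ccl5, Ccl6 and Ccl9 on neutrophils and monocytes, reached 10 TPM in 7 cells. In mouse 1 these were Mpo cells, cell 41 with 644 TPM and cell 24 with 312 TPM, and both also held Ccr2, at 384 and 991 TPM. In mouse 2 they were 4 of the 10 S100a8 cells, with 14.3 to 186 TPM, and 1 Mpo cell with 28.3 TPM. Of the 7 cells, 6 also held Cxcr4 at 10 TPM or more. Its differences from the rest cells, 2.32 in S100a8 cells of mouse 2 and 1.52 and 0.44 in Mpo cells, rest on these few cells. No rest cell had a value above 0, and the highest in an H2-Aa cell was 0.49 TPM.

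Ccr7, which guides mature dendritic cells and naive T cells into lymph nodes, was above 0 in 1 of 96 cells, a rest cell of mouse 1 with 53 TPM. It was at 0 in all 34 H2-Aa cells, which allows a share of up to 8.82% of such cells. Ccr9, a receptor of gut-homing lymphocytes and plasmacytoid dendritic cells, was above 0 in 7 cells, all of them H2-Aa cells, and at 1 TPM or more in 2, with 11.5 and 8.03 TPM. The higher of these was cell 68 of mouse 2, which had H2-Aa at 6732 TPM and Mpo at 6730 TPM. Cx3cr1, the fractalkine receptor of patrolling monocytes and macrophages, was above 0 in 4 cells, all of them Mpo cells, with a highest value of 9.57 TPM in cell 34 of mouse 1. Values this few cells hold do not order the states.

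Between the mice, 4 of the 8 receptors passed a filter on low values (1 TPM reached in 5 cells of each mouse): Cxcr2, Cxcr4, Cxcr3 and Ccr2. None of the 4 differed by 1 or more. Over all 8008 genes that passed, 1.85% were higher in mouse 2 by that much and 15.3% were lower, with a median difference of -0.28. The differences, mouse 2 minus mouse 1, were -0.12 for Cxcr4, 0.14 for Cxcr3 and -0.20 for Ccr2, beside the 0.45 of Cxcr2. The state make-up moved with the mouse, and the differences changed with the states left out. Ccr2 differed by -1.12 without the Mpo cells, 0.89 without the H2-Aa cells, 0.56 without the S100a8 cells and -0.34 in the rest cells alone. Cxcr4 differed by 0.77 without the H2-Aa cells and 0.47 in the rest cells alone. The sign of Ccr2 and Cxcr4 between the mice thus depended on which states were included.

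Within the mice, the same 4 receptors passed the filter of 1 TPM or more in 10 of 96 cells, and a gene that passed through the state in which it is high had to differ there, so the counts are read against the background only. In H2-Aa cells 2 receptors were higher by 1 or more than in the rest cells and 1 was lower, in each mouse. The background was 10.2% of 8718 genes higher and 37% lower in mouse 1, and 9.37% and 44% in mouse 2. In Mpo cells 2 receptors were higher in each mouse, against 26.3% higher and 6.64% lower in mouse 1 and 25.5% and 16.7% in mouse 2. In S100a8 cells of mouse 2, Cxcr4 alone of the 4 was higher, against 11.7% higher and 41.7% lower. The lower Cxcr4 of H2-Aa cells was therefore a kind of difference that 37% to 44% of genes showed, and the higher Cxcr4 of Mpo cells one that 25.5% to 26.3% of genes showed.

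**Figure D5:**
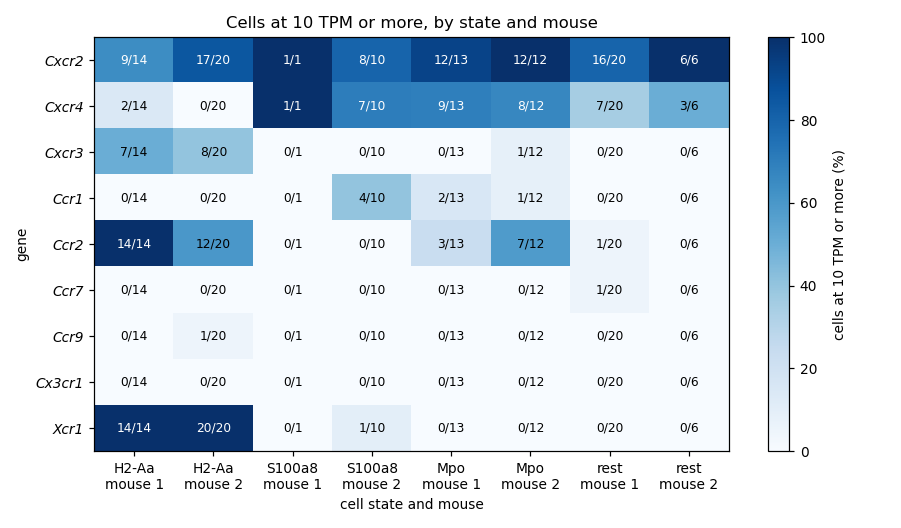
Cells at 10 TPM or more of each receptor, and of Xcr1, as a percentage of the cells of a state in a mouse (colour) with the counts printed. Ccr2 is found in 14 of 14 and 12 of 20 H2-Aa cells and 0 of 10 S100a8 cells of mouse 2, and Xcr1 in 14 of 14 and 20 of 20 H2-Aa cells.

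Combinations of receptors in a cell were counted without Cxcr2. Of 96 cells, 30 held none of the other 7 members at 10 TPM or more, 36 held 1, 27 held 2 and 3 held 3. All 3 of the last were Mpo cells. Of the 26 rest cells, 15 held none, while in mouse 1 every H2-Aa cell held at least 1.

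The second deposited table, in RPKM, held 2 of the 8 receptors, Ccr2 and Cxcr3, and it listed far fewer genes above the floor of their gene, a median of 912 per cell. Ccr2 was above its floor in 17 cells, of which 16 were among the 37 cells at 10 TPM or more. By state these 17 were 12 H2-Aa cells, 4 Mpo cells and 1 rest cell. Cxcr3 was above its floor in 1 cell, against 16 at 10 TPM or more. Over 8236 genes matched between the tables, with gene means removed, each of the 96 cells resembled its own TPM column most. The RPKM table thus ordered the states as TPM did for Ccr2 and held too few values of Cxcr3 to order them.

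Of 17 other chemokine receptors, 10 were at 0 in all cells and 5 reached 10 TPM in any cell. Xcr1 alone passed the filters, at 10 TPM or more in 35 cells, 34 of them H2-Aa cells, with H2-Aa differences of 8.38 in mouse 1 and 8.06 in mouse 2. It passed mainly through the H2-Aa cells, which were 34 of its 42 cells at 1 TPM or more. It is also one of the 10 markers of class II-high dendritic cells, so these differences are descriptions only. Xcr1 was found in all 34 H2-Aa cells, at 15.8 to 2292 TPM. All 26 H2-Aa cells with Ccr2 and all 15 with Cxcr3 at 10 TPM or more therefore held Xcr1 as well.

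Among 34 chemokine ligands in the table, 15 were at 0 in all cells and 9 reached 10 TPM in 5 cells or more. Ligands of Cxcr2 and Cxcr4 on this list were found in few cells. Cxcl1, Cxcl3 and Cxcl5 were at 0, Cxcl2 reached 5.51 TPM in 1 cell and Cxcl12 0.21 TPM in 1 cell. Ppbp was above 0 in 2 cells and reached 329 TPM in 1 of them. Ligands outside this list, such as Mif, at 10 TPM or more in 72 of 96 cells, are not covered by these counts. Ccl9, a ligand of Ccr1, was at 10 TPM or more in all 25 Mpo cells, in 9 and 1 rest cells, in 1 S100a8 cell and in 0 of 34 H2-Aa cells. Its Mpo differences were 4.77 in mouse 1 and 6.75 in mouse 2. Ccl3, another ligand of Ccr1, was at that level in 10 of 13 Mpo cells of mouse 1 and 2 of 12 of mouse 2.

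Ccl2, the ligand of Ccr2, was at 10 TPM or more in 7 cells, 5 Mpo cells and 2 H2-Aa cells, and reached 2689 TPM. Cxcl16, the ligand of Cxcr6, was at that level in 6 of 14 and 5 of 20 H2-Aa cells and in no other cell. Ccl6 was at that level in 6 and 6 H2-Aa cells, 3 and 3 Mpo cells, 2 S100a8 cells of mouse 2 and 0 rest cells. Ccl5 was in 9 of 20 rest cells of mouse 1 and 1 of 6 of mouse 2, and in 2 H2-Aa cells and 1 Mpo cell of mouse 2. Ccl4 was in 12 cells, Ccl27a in 10 and Pf4 in 5. Cxcl9 and Cxcl10, the ligands of Cxcr3, were at that level in 3 and 2 cells, and are named outside the rule because of their receptor. Of the 8 ligands that passed the filter, 2 were higher and 4 lower in H2-Aa cells of mouse 1, 2 and 0 in those of mouse 2, and 4 higher and 2 lower in Mpo cells of mouse 1 and 3 and 0 in those of mouse 2. The shares of all genes were 10.2% higher and 37% lower, 9.37% and 44%, 26.3% and 6.64%, and 25.5% and 16.7%, in the same order. A ligand that passed through the state in which it is high had to differ there. Cxcl16 was such a ligand, with 13 of its 14 cells at 1 TPM or more among the H2-Aa cells. In S100a8 cells of mouse 2, 1 ligand was higher and 2 were lower, against 11.7% and 41.7% of all genes. Of the 7 that passed the filter between mice, 0 were higher and 1 lower in mouse 2, against 1.85% and 15.3%.

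The machinery downstream of the receptors was measured more widely than the receptors, and 28 of 33 signalling genes reached 10 TPM in 10 cells or more. Gnb1, a G-protein beta subunit, had mean levels of 1074 TPM in mouse 1 and 1180 in mouse 2. Of 31 genes that passed the filter, 12 were higher and 6 lower in H2-Aa cells of mouse 1, and 10 and 10 in those of mouse 2. Over all genes 10.2% were higher and 37% lower in mouse 1, and 9.37% and 44% in mouse 2. Rgs10, a regulator that shortens G-protein signals, was higher in H2-Aa cells by 5.47 and 7.47, and Rgs18, a relative of it, lower, with differences of -2.64 and -6.45. Cd74, the invariant chain and a receptor of Mif, was higher by 10.70 and 11.30, and it is also one of the class II markers. Mif itself differed by -2.82 and -5.35.

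In Mpo cells 8 of the 31 signalling genes were higher and 4 lower in mouse 1, and 9 and 3 in mouse 2, against 26.3% and 6.64% of all genes in mouse 1 and 25.5% and 16.7% in mouse 2. The counts of higher genes were thus near the background. Gng12, a G-protein gamma subunit, was higher by 2.26 and 2.31. In S100a8 cells of mouse 2, 7 were higher and 10 lower, against 11.7% and 41.7% of all genes, with Rac2, a GTPase needed for neutrophil movement, higher by 1.71. Between mice 3 of 30 were higher and 3 lower, against 1.85% and 15.3%, with Rgs18 at -2.81 and Rgs19 at 1.37. The median difference of the signalling list was 0.30 and 0.33 in H2-Aa cells, beside -0.61 and -0.77 over all genes.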

How the data were processed

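Single-cell RNA libraries of 96 spleen cells were analysed. The authors deposited TPM values for 23955 gene symbols and RPKM values for 9310 genes, per the file headers and names. The submitters' processing notes name Bowtie2, TopHat2 and RSEM and the builds mm9 and mm10; their roles and versions are not given in the sources used here. TPM of every cell summed to 1000000, 0 columns lacked a sample and 0 columns were identical.

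Levels were summarised per cell group, and differences taken between means of log2(TPM + 1), which understates the change of low genes, with Python 3.11.15, pandas 2.3.3, numpy 2.4.6 and scipy 1.17.1. Genes at 1 TPM or more in 5 cells of each mouse, or in 10 of 96 cells for states, entered the background. Exact intervals (95%) and limits for a count of 0 (3 cells) cover counting error only. Shared 50-base words were searched in GENCODE transcripts on GRCm38. The calculation was tested on simulated data. Doublets were not called; the labels say that captured cells were scored by eye. The members, lists and tests were chosen with earlier results of these data known. Named genes are the members, list genes at 10 TPM or more in 10 cells (ligands in 5 cells), the 5 genes most like a member, and the 5 genes most even at a mean like that of Cxcr2, without Gm and Rik names. Some genes that the rule would name are not reported here.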

Additional observations from a re-analysis of the deposited data

Results flagged for a closer look

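Single cells stood far from the rest of their group for 2 receptors, out of 8 groups of 4 to 10 cells looked at. The usual rate of about 1 in 20 groups by chance does not hold for values that are mostly 0, since with 9 of 10 cells at 0 any value above 0 stands apart. Both were the highest of 10 S100a8 cells of mouse 2: Cxcr3 at 0.4 TPM, with the other 9 cells at 0, and Ccr2 at 0.67 TPM, with the nearest at 0.17. Both values lie below 1 TPM, and nothing is read from them.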

How the results depend on the processing

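The comparison of H2-Aa with Mpo cells, and its settings, were chosen after seeing the data. No paired analysis was possible because each side was 1 animal and cell numbers were not shared between the mice, and for the same reason no replicate was left out. Recomputed differences of receptors stayed on their side of 1 in 170 cases, passed it in 3 and no longer did in 13; the cause was not tested. Of differences of 1 or more, 0 changed sign. Of smaller ones, 7 did, in 16 cases, among them Cxcr2 in Mpo cells of mouse 1 (-0.27 at a threshold of 300 TPM) and Ccr2, Cxcr4 and Cxcr3 between the mice (up to 0.89, up to 0.77 and down to -0.17). Without the Mpo cells, 1 receptor was lower in mouse 2 than in mouse 1 (Ccr2). With a pseudocount of 10, 0 receptors were lower in H2-Aa cells of either mouse, 1 was higher in Mpo cells of each mouse, and 0 in S100a8 cells. With the number of detected genes removed, 0 were lower in H2-Aa cells of either mouse and 1 was higher in Mpo cells of mouse 1. Leaving out cells past several thresholds, 0 were higher in S100a8 cells, where Cxcr4 then differed by 0.88. Within 0.5 of the mean of Cxcr2, 4 of 406 other genes had a lower SD. At a state threshold of 300 TPM, H2-Aa cells of mouse 1 differed by -0.59 in Cxcr4 and -1.22 in Cxcr2. Removing the number of detected genes kept 3 of the 5 genes most like Cxcr2, 3 for Cxcr4, 2 for Cxcr3 and 2 for Ccr2. Depth limits what a value of 0 TPM can show.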
